A study of Mus musculus with 620 samples.

Results

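The 39 genes described here are interferon-stimulated genes of the mouse, taken by symbol, and all 39 were present in each of the 3 deposited count tables (24850 genes in the LT table, 40840 in each of the ST and YA tables). They fall into 8 groups by role. Irf7, Irf9 and Stat2 are transcription factors. Oas1a, Oas2, Oasl2, Ifih1, Ddx60, Eif2ak2 and Zc3hav1 sense or degrade foreign RNA. Ifit1, Ifit2, Ifit3 and Ifit3b are IFIT proteins, and Isg15, Usp18 and Herc6 belong to the ubiquitin-like ISG15 system. Parp9, Parp14 and Dtx3l act in ADP-ribosylation. Mx2, Rsad2, Bst2, Cmpk2, Samd9l, Slfn5 and Slfn8 are antiviral effectors. Gbp2, Gbp3, Gbp7, Igtp, Irgm1 and Iigp1 are interferon-inducible GTPases. Ifi27l2a, Ifi44, Rtp4, Xaf1, Trim30a and Lgals3bp make up the remaining group.

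The series holds 620 bulk poly(A) RNA-seq libraries from 72 mice in 11 conditions, split over cohorts named LT, ST and YA, and it asks how age, the GLP-1 receptor agonist exenatide, the mTOR inhibitor rapamycin and a hypothalamic knockdown of the GLP-1 receptor relate to expression across the body. The LT cohort had aged mice on exenatide (8 animals), aged controls (9) and young controls (8), with 284 libraries from 12 tissues. The ST cohort had aged mice on exenatide with knockdown, with knockdown alone, on exenatide and on rapamycin, and aged controls (5 animals each) and young controls (6, of which 5 were used in each tissue), with 208 libraries from 7 tissues. The YA cohort had mice on exenatide and controls (8 each), with 128 libraries from 8 tissues. Groups were complete except in white blood cells (5 animals in each LT group, 4 each for ST exenatide and ST rapamycin), in young LT colon and muscle (6 each), and in LT frontal cortex and lung of aged controls (8 each). Y and A in the LT and ST group names are read as young and aged, and the labels do not say what YA stands for or what age its mice shared. Strain, sex, ages, doses, treatment lengths, vehicles and the method of knockdown are not stated in the labels, so groups with the same drug in different cohorts are not matched in a known way. No ST hypothalamus library was analysed here, so the knockdown itself was not checked. Each library of a tissue came from a different animal, and the same animals recur across tissues.

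Interferons are secreted proteins that cells release on sensing foreign or misplaced nucleic acid. Type I and type III interferons act on their target genes through the interferon-stimulated response element (ISRE), whereas interferon gamma, made mainly by T and NK cells, acts mainly through the gamma-activated site (GAS). The genes they induce overlap widely, and the IRG and GBP GTPases, which attack vacuoles that hold pathogens, are among those most strongly induced by interferon gamma in mice.

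Library totals ran from 15.2 M to 33.8 M counts in LT, from 14.6 M to 56.2 M in ST and from 15 M to 34.1 M in YA (M, mega). Markers chosen for each labelled tissue other than colon were present in it, such as albumin in every liver and Myh6 in every heart. Slc17a7 was present in every frontal cortex and hippocampus, which it does not tell apart. Prox1, also chosen for hippocampus, had a median of 29 CPM there in YA (19 to 138), against 126 CPM in LT and 155 CPM in ST. Colon held 1 exception. The young LT colons A52 and A53 held 0.0869 and 0.0469 CPM of Car1, a carbonic anhydrase of the large intestine, against 420 to 7070 CPM in the other LT colons, and 6500 and 7950 CPM of Sis, the sucrase-isomaltase of the small intestine, against at most 25.8 CPM in the others (Sis was chosen after its values were seen). Colon levels of young LT mice and colon calls of the LT cohort are therefore given with and without them. All 39 genes passed the filter on low counts in every tissue and cohort, except Ddx60 in YA hippocampus and Mx2 in YA muscle. In bulk tissue, more cells of a type and more RNA per cell cannot be told apart. Values below are CPM, counts scaled to library size with trimmed mean of M-values (TMM) factors, and a gene was called where edgeR's quasi-likelihood test gave a Benjamini-Hochberg adjusted p under 0.05 over all genes tested in that tissue. Shares of all genes given beside the members are edgeR calls at that adjusted p. Counts of members at an unadjusted p, without overlap between groups, by DESeq2 or in most refits have no such share. They describe the members alone and cannot be set against all genes. The mean of the 39 genes is a mean of log2 CPM per library and is given as a description without a test.

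Promoters were read for 31 of the 39 genes from RefSeq (GRCm38.p6, whereas the submitters' processing notes name GRCm39 for these data). Entries for Parp14, Iigp1, Oas2, Rtp4, Usp18, Parp9, Ifi27l2a and Mx2 were missing. The ISRE core GAAANNGAAA, on either strand within 250 bases before to 50 bases after the start, was present in 19 of 31 (61.3%), against 3.99% of 27025 genes. A longer run, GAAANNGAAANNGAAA, which contains the core, was present in Oas1a, Isg15, Bst2, Gbp3 and Irgm1 (5 of 31, 16.1%, against 0.133% of all genes). The GAS consensus TTCNNNGAA was present in 6 of 31 (19.4%), against 9.55% of all genes. The 150 bases before the start are shown for 7 members whose values are given below, so that the element can be seen in its context; capitals mark every match to the ISRE core. Isg15 shows overlapping copies close to its start, Rsad2 and Gbp2 carry the core on the other strand, Ddx60 holds separate copies, Irgm1 and Igtp show it near the start of IRG GTPases, and Irf7 shows a window without a match.
Isg15, chr4:156200819-156200968, minus strand: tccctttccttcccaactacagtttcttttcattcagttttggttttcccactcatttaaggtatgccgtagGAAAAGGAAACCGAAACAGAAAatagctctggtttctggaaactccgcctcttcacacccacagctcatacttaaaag
Rsad2, chr12:26456453-26456602, minus strand: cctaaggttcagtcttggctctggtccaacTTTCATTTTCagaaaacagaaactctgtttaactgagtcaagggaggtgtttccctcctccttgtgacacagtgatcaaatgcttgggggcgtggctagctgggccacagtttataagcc
Ddx60, chr8:61927937-61928086, plus strand: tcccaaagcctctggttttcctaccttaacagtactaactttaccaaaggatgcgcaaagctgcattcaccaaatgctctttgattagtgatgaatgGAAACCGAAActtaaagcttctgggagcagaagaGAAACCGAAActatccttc
Irgm1, chr11:48871421-48871570, minus strand: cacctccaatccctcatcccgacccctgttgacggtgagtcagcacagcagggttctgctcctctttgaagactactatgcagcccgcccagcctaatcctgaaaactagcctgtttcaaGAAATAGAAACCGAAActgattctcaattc
Igtp, chr11:58199406-58199555, plus strand: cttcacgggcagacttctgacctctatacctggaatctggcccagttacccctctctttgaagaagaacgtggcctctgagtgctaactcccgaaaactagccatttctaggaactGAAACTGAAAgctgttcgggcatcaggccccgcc
Gbp2, chr3:142620513-142620662, plus strand: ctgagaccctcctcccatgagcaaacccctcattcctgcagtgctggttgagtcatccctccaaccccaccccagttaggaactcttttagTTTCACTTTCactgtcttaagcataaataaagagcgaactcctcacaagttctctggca
Irf7, chr7:141266425-141266574, minus strand: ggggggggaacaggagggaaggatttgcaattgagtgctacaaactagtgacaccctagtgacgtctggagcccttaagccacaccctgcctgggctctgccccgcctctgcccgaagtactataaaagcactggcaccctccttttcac

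The 39 genes were least abundant in brain and muscle among young LT, young ST and YA controls, and the order of the other tissues differed between cohorts. Among young LT controls the median of the 39-gene mean was 5.99 in spleen, 5.76 in colon, 5.65 in white blood cells, 5.57 in adipose tissue and 5.36 in lung, on the log2 CPM scale. It was 4.08 in heart, 3.95 in liver and 3.64 in kidney, and 2.27 in muscle, 2.06 in hypothalamus, 1.94 in frontal cortex and 1.65 in hippocampus. Colon gave 5.93 without A52 (5.45) and A53 (6.07). Neighbours in this order overlapped between animals, except that lung stood above heart and kidney above muscle without overlap. Young ST controls gave 4 tissues at 3.98 or more (white blood cells, colon, adipose tissue and heart) and frontal cortex, muscle and hippocampus at 1.99, 1.85 and 1.66. YA controls gave medians of 6.83 in adipose tissue, 5.56 in colon, 4.99 in heart and 4.60 in white blood cells, and of 2.97 in muscle, 2.25 in hypothalamus, 1.97 in frontal cortex and 1.59 in hippocampus. Per kilobase of the gene's exons, Ifi27l2a, an interferon-induced gene of the Ifi27 family, led in young LT adipose tissue with a median of 962 CPM per kb (705 to 1310, n = 8). It also led in spleen (110), white blood cells (95.2), heart (28.7) and muscle (19.9). Bst2, which tethers budding virus to the cell surface, led in liver (149) and lung (79.1), the secreted glycoprotein Lgals3bp in colon (134, and 132 without A52 and A53), hypothalamus (10.8) and hippocampus (5.92), Samd9l, an antiviral restriction factor, in kidney (42) and the nucleotide kinase Cmpk2 in frontal cortex (6.54). In hippocampus 21 of the 39 genes had a median under 1 CPM per kb, in frontal cortex 18, in hypothalamus 15 and in muscle 14, whereas none did in spleen or in colon with or without A52 and A53.

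**Figure D1:**
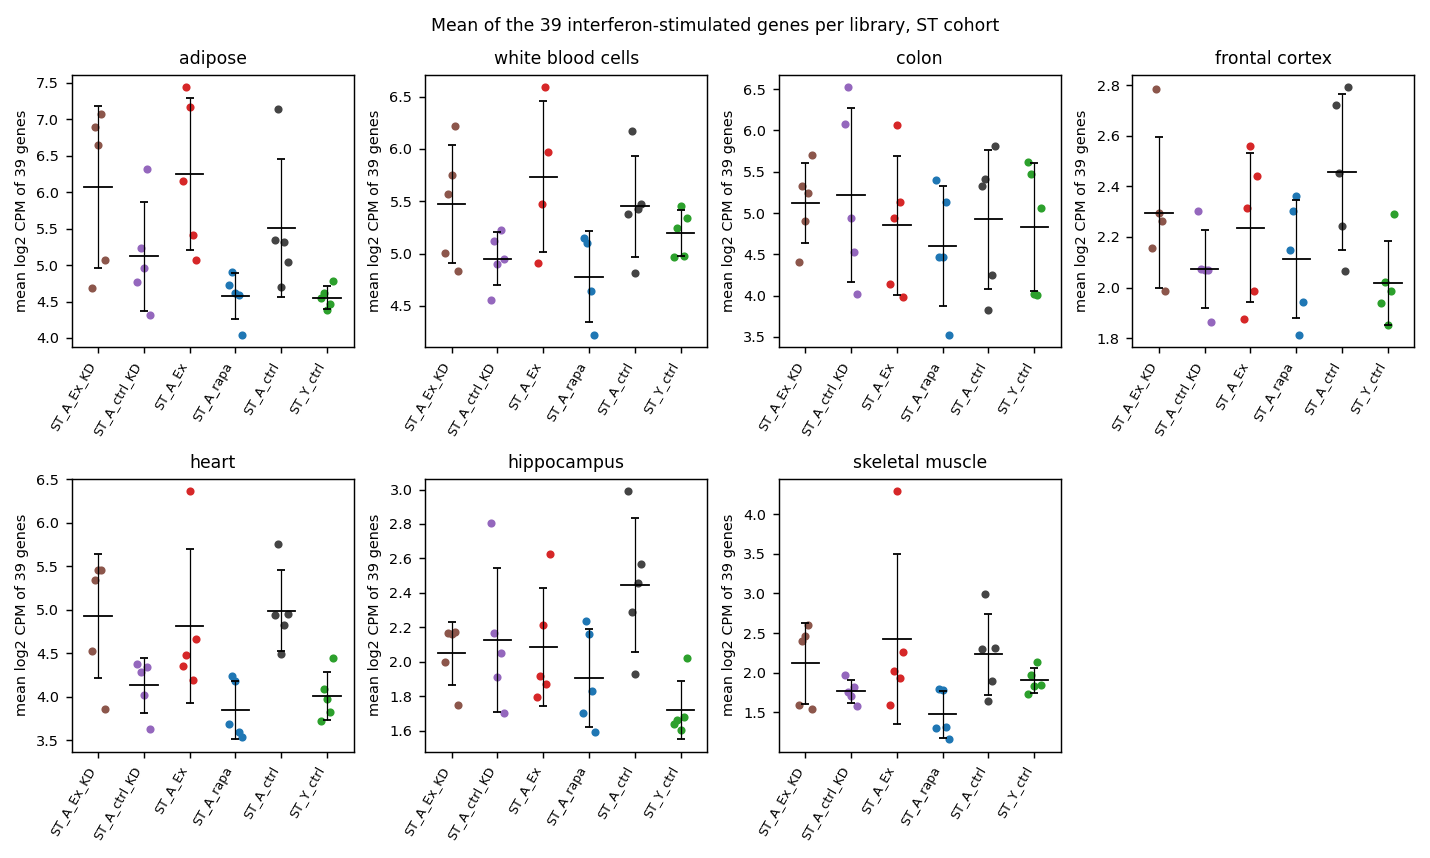
Mean log2 CPM of the 39 genes in every ST library, by tissue, with 1 point per animal, the group mean as a horizontal line and the SD as a bar. Groups run from exenatide with knockdown (ST_A_Ex_KD), knockdown (ST_A_ctrl_KD), exenatide (ST_A_Ex) and rapamycin (ST_A_rapa) to aged controls (ST_A_ctrl) and young controls (ST_Y_ctrl); in heart the aged controls (mean 4.99) sit above the young controls (4.01), the rapamycin group (3.85) and the knockdown group (4.13) without overlap.

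In the ST cohort, aged controls had higher levels of many of the 39 genes than young controls, with the largest numbers in hippocampus and heart. The test called 26 of 39 genes higher in aged hippocampus (11.9% of all genes tested were called higher there) and 20 in aged heart (11.5%), and none lower in either. Called members numbered 10 in frontal cortex (25.6%, against 4.3% of all genes). They numbered 5 in white blood cells (12.8%, against 12.6%) and 2 in muscle (5.13%, against 9.22%). The share in white blood cells was thus near that of all genes, and the share in muscle was below it. Zc3hav1 and Samd9l were called lower in aged white blood cells, where 11% of all genes were called lower. Adipose tissue and colon gave 0 calls by edgeR, with 27 and 0 genes at an unadjusted p under 0.05. Over the 7 tissues, 63 of 273 gene-by-tissue tests were called higher (23.1%, against 6.82% of all such tests over all genes) and 2 lower (0.733%, against 6.74%). DESeq2 called 81 higher and 2 lower.

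The aged hippocampus held calls in every role group: 6 of 7 genes of RNA sensing and decay, 4 of 4 IFIT genes, 5 of 6 GTPases, 2 of 3 transcription factors, 2 of 3 ADP-ribosylation genes, 3 of 7 effectors, 1 of 3 genes of the ISG15 system and 3 of 6 others. The median log2 fold change of all 39 members there, called or not, was 0.79, against -0.002 over all genes tested. Zc3hav1, which encodes ZAP, a protein that binds CpG-rich viral RNA and recruits decay factors, had the smallest adjusted p. It measured 17.2, 16.5, 16.4, 17.4 and 15.7 CPM in aged controls (animals E13, E23, E29, E30 and E32, the order used for aged ST controls throughout), against 7.44, 7.31, 7.98, 8.62 and 9.25 CPM in young controls. Every aged library lay above every young one (log2 fold change 1.04 ± 0.11 SE, adjusted p = 3.02e-08). Ddx60, a helicase-like protein of the antiviral response, measured 4.34, 1.68, 2.3, 2.96 and 2.48 CPM in aged controls, against 0.835, 0.764, 1.13, 0.72 and 1.03 CPM in young controls. It also did not overlap (1.62 ± 0.28, adjusted p = 8.17e-05), and the highest value was that of E13. Parp14, a mono-ADP-ribosyltransferase, measured 10.5, 8.97, 4.86, 8.57 and 7.68 CPM in aged controls, against 3.68, 3.6, 3.15, 3.62 and 3.9 CPM in young controls (1.18 ± 0.20, adjusted p = 6.2e-05), and its groups did not overlap either.

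Among the other role groups of the hippocampus, Ifit2, an RNA-binding protein that restrains viral translation, measured 13.5, 11, 9.83, 9.7 and 12.4 CPM in aged controls, against 8.15, 7.34, 8.4, 7.85 and 8.48 CPM in young controls (0.49 ± 0.09, adjusted p = 0.000115). Irgm1, a GTPase that regulates the other IRG proteins, measured 20.5, 14.8, 10.3, 11.4 and 11.3 CPM in aged controls, against 7.31, 6.29, 7.27, 7.73 and 8.06 CPM in young controls (0.90 ± 0.17, adjusted p = 0.000172). Slfn8, a Schlafen protein, measured 3.49, 1.73, 2.56, 2.31 and 2.13 CPM in aged controls, against 0.877, 1.18, 0.877, 0.883 and 1.11 CPM in young controls (1.31 ± 0.25, adjusted p = 0.000227). All 3 separated the groups without overlap. Trim30a, a ubiquitin ligase that restrains NF-κB signalling, separated them as well, with 8.39, 4.49, 5.42, 5.87 and 4.41 CPM in aged controls, against 2.84, 2.97, 2.42, 2.81 and 4.01 CPM in young controls (0.93 ± 0.20, adjusted p = 0.000681). Stat2 was higher by 0.28 ± 0.08 (adjusted p = 0.00828) and Herc6, the mouse ligase that attaches ISG15, by 0.49 ± 0.17 (adjusted p = 0.0316), each with overlapping groups. Gbp2, a guanylate-binding protein, measured 9.97, 11.5, 3.58, 6 and 4.61 CPM in aged controls, against 3.84, 2.71, 3.15, 2.88 and 3.51 CPM in young controls (1.15 ± 0.33, adjusted p = 0.0112), overlapping at E29. Of the 26 called genes, 17 had no overlap between groups. No single animal left out moved the count of 26 by more than 1.5 times.

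In heart the aged controls stood higher for 5 of 7 genes of RNA sensing and decay, 5 of 7 effectors, 3 of 4 IFIT genes, 2 of 3 genes of the ISG15 system, 1 ADP-ribosylation gene and 4 others, whereas no transcription factor and no GTPase was called. The median log2 fold change of the 39 genes was 1.07, against 0.02 over all genes tested, and all 39 were positive. Slfn8 measured 13, 21, 12.8, 16.8 and 10.2 CPM in aged controls, against 2.67, 6.68, 4.62, 3.15 and 6.49 CPM in young controls (1.64 ± 0.31, adjusted p = 0.00267). Samd9l measured 69.7, 71.6, 65.1, 67.2 and 54.2 CPM in aged controls, against 19.5, 32.9, 29.6, 20.9 and 37.7 CPM in young controls (1.22 ± 0.27, adjusted p = 0.00479). Both separated the groups fully, as did Trim30a, with 38.8, 44.9, 28.5, 39.8 and 35.1 CPM in aged controls, against 13.9, 20.8, 17.6, 13.1 and 23.8 CPM in young controls (1.07 ± 0.21, adjusted p = 0.00309). Ifit2 measured 51.8, 63.9, 40.8, 42.1 and 68.7 CPM in aged controls, against 12, 23.7, 25.1, 14.7 and 34.5 CPM in young controls (1.28 ± 0.34, adjusted p = 0.0118), again without overlap. Ifih1, which encodes the double-stranded RNA sensor MDA5, averaged 28.6 ± 7.01 CPM in aged controls and 14.3 ± 3.61 CPM in young controls (SD, n = 5 each; 1.0 ± 0.29, adjusted p = 0.0153). The GTPase Igtp, not called, had 37.2, 839, 26.5, 38.7 and 26.7 CPM in aged controls, against 20.9, 21.9, 17.8, 67.7 and 35.9 CPM in young controls, so the aged mean was set by E23. Of the 20 called genes, 15 had no overlap between groups. The count of 20 became 13 with no filter on low counts, 32 with only the conditions compared in the fit, 9 without A42, 7 without A46, 13 without E13, 9 without E23 and 34 without the exenatide animal E31, whose libraries enter the shared estimate of spread.

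Several genes moved with age in 3 ST tissues: Zc3hav1, Ddx60 and Ifih1 in frontal cortex, heart and hippocampus, Oas1a, an oligoadenylate synthetase, in white blood cells, heart and hippocampus, and Ifit3b in white blood cells, frontal cortex and hippocampus. Oas1a shares 47.6% of its 75-base stretches with Oas1g, and Ifit3 and Ifit3b share 41.1% and 35.7% of theirs with other genes, mainly each other, so reads may have been split between these copies. In frontal cortex Zc3hav1 measured 12.8, 9.66, 11.1, 9.66 and 10.5 CPM in aged controls, against 7.89, 6.67, 5.86, 6.22 and 7.03 CPM in young controls (0.67 ± 0.10, adjusted p = 0.000221). The frontal cortex groups did not overlap, and the count of 10 genes there became 6 with no filter on low counts, 3 without A43 and 4 without A45, A46, E13 or E32. In white blood cells the direction of Zc3hav1 was the opposite, with 122, 123, 119, 128 and 174 CPM in aged controls, against 179, 198, 194, 170 and 193 CPM in young controls (-0.49 ± 0.18, adjusted p = 0.0495), overlapping at E32 and A45. Rtp4, an interferon-induced chaperone of G protein-coupled receptors, was higher in aged white blood cells, with 39.1, 111, 17.9, 52 and 27.9 CPM in aged controls, against 9.16, 20.7, 16, 12 and 16.1 CPM in young controls (1.75 ± 0.49, adjusted p = 0.0124), overlapping at E29 and A43. The white blood cell count of 5 higher genes became 2 with no filter, 0 without E23, 2 without A42, A43 or A47 and 3 without A45 or E13. Oas2 in muscle measured 5.24, 3.63, 1.48, 3.19 and 3.5 CPM in aged controls, against 1.3, 0.758, 1.18, 1.6 and 1.33 CPM in young controls (1.47 ± 0.43, adjusted p = 0.0184), overlapping only through E29. The muscle count of 2 became 5 without E29 and 8 without E31. In adipose tissue edgeR called 0 of 39, and 38 of 39 fold changes were positive (median 1.42, against 0.05 over all genes, of which 55.1% were positive). The aged control E23 stood far above the rest of its group there. Its 39-gene mean was 7.14 on the log2 CPM scale, against 4.7 to 5.35 in the other aged controls. Young controls had 4.38 to 4.78 in adipose tissue. There 12 genes did not overlap between groups, a count with no share of all genes beside it.

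Marker genes of immune cells moved with the same contrasts. In aged heart, 5 of 6 macrophage markers, 2 of 3 pan-leukocyte markers, 1 of 6 T and NK cell markers and 3 of the 3 tested of 4 neutrophil markers were called higher, while 2 of 3 endothelial markers were called lower. The summed macrophage markers ran from 261 to 676 CPM (median 455) in aged controls, against 200 to 254 CPM (215) in young controls, and the neutrophil sum from 15.2 to 36.6 CPM in aged controls, against 2.57 to 12.2 CPM in young controls. In aged hippocampus, 4 of 6 macrophage and microglia markers and 3 of the 3 tested neutrophil markers were called higher, with a macrophage sum of 250 to 402 CPM (median 306) in aged controls, against 226 to 255 CPM (251) in young controls. In frontal cortex none of the 6 macrophage and microglia markers was called. The part of these cells in the results was not tested.

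The wider pathway moved in the aged ST heart and hippocampus too. Of the other interferon-induced genes listed, 22 of 42 tested were called higher in hippocampus and 19 of 46 in heart, and none lower. Of the 15 nucleic acid sensors and regulators tested, 6 were called higher in each. Zbp1, a sensor of Z-form nucleic acid, was higher by 2.38 ± 0.51 in hippocampus (adjusted p = 0.000706) and by 2.19 ± 0.66 in heart (adjusted p = 0.0199). Sting1, the adaptor of cytosolic DNA sensing, was higher by 0.55 ± 0.13 in hippocampus (adjusted p = 0.00172) and by 0.58 ± 0.20 in heart (adjusted p = 0.0362). Of the 6 ligand and receptor genes that passed the filter of 14 listed, Ifnar1, a chain of the type I interferon receptor, was called higher in both (0.21 ± 0.05 in hippocampus, adjusted p = 0.00306, and 0.33 ± 0.10 in heart, adjusted p = 0.0219). Of the type I and type III interferon genes looked up, Ifnb1, Ifna2, Ifna4, Ifnl2 and Ifnl3 held no count in at least 204 of the 208 ST libraries, and the highest level was 0.0717 CPM, of Ifna4.

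**Figure D2:**
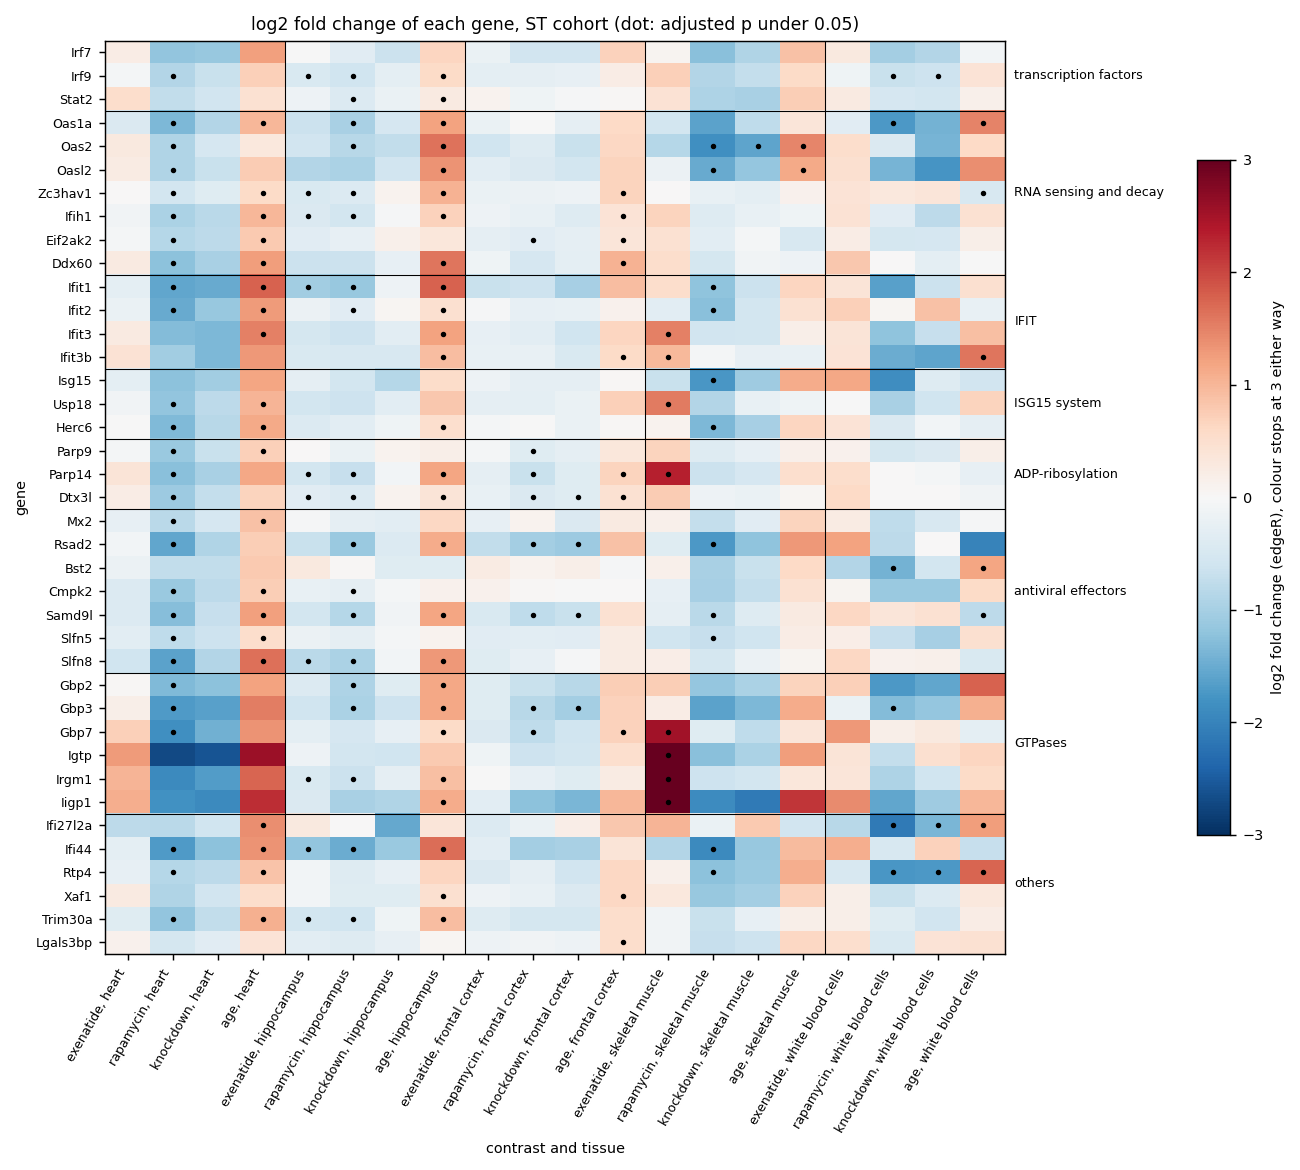
Log2 fold change of each of the 39 genes (rows, by role) in 5 ST tissues for exenatide, rapamycin, knockdown and age (columns within a tissue; each drug or knockdown against aged controls, age against young controls). Red is higher and blue is lower, colours stop at 3 either way, and a dot marks an adjusted p under 0.05; the heart column for rapamycin holds 27 dots, all blue, and the hippocampus column for age holds 26, all red.

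Rapamycin-treated aged mice had lower levels of many of the 39 genes than aged controls. Heart led with 27 genes called lower (10.1% of all genes tested were called lower there), followed by hippocampus with 19 (13.5%), muscle with 11 (4.72%), frontal cortex with 8 (10.4%) and white blood cells with 6 (6.32%). Over the 7 tissues 71 of 273 tests were called lower (26%, against 6.5% over all genes), and none was called higher by edgeR or DESeq2. Over all genes, edgeR called 6.72% of such tests higher. None of the 273 was higher at an unadjusted p under 0.05, for which no share of all genes is given. DESeq2 called 89 lower. The rapamycin and age contrasts share the aged controls, so a low or high control animal moves both.

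In heart, the genes called lower under rapamycin were all 7 genes of RNA sensing and decay, all 3 ADP-ribosylation genes, 6 of 7 effectors, 3 of 6 GTPases, 2 IFIT genes, 2 genes of the ISG15 system, 1 transcription factor and 3 others. Rsad2 encodes viperin, which makes a chain-terminating nucleotide. It measured 17.6, 27.8, 14.3, 14.2 and 14.5 CPM under rapamycin (animals E10, E22, E28, E36 and E6), against 66.7, 57, 33.3, 44.1 and 61.1 CPM in aged controls (-1.57 ± 0.28, adjusted p = 0.000923). Trim30a measured 16, 18.1, 21.1, 13.2 and 14 CPM under rapamycin, against 38.8, 44.9, 28.5, 39.8 and 35.1 CPM in aged controls (-1.18 ± 0.21, adjusted p = 0.00087). Both separated the groups without overlap. Samd9l measured 36.2, 18, 25, 37.6 and 19.3 CPM under rapamycin, against 69.7, 71.6, 65.1, 67.2 and 54.2 CPM in aged controls (-1.27 ± 0.27, adjusted p = 0.00226). Ifit2 measured 18.8, 25.2, 18.7, 19.8 and 11.8 CPM under rapamycin, against 51.8, 63.9, 40.8, 42.1 and 68.7 CPM in aged controls (-1.51 ± 0.35, adjusted p = 0.0043). Parp9 measured 20.9, 25, 17.6, 21.2 and 18 CPM under rapamycin, against 42.9, 68.7, 31.7, 37.7 and 39.6 CPM in aged controls (-1.11 ± 0.27, adjusted p = 0.00583). These 3 also separated the groups, and Parp9 overlaps Dtx3l by 458 bases on the opposite strand, so reads of the pair may be shared.

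The remaining role groups gave Herc6 with 6.04, 5.74, 8.11, 6.5 and 5.03 CPM under rapamycin, against 16.9, 20.5, 11.6, 12.2 and 17.1 CPM in aged controls (-1.32 ± 0.36, adjusted p = 0.0125). Gbp7, a guanylate-binding protein, had 23.2, 19.4, 17, 24.7 and 12.5 CPM under rapamycin, against 58, 156, 41.1, 39.6 and 52.6 CPM in aged controls (-1.84 ± 0.58, adjusted p = 0.0242). Irf9 had 20.3, 32.9, 28.8, 18.8 and 20.9 CPM under rapamycin, against 36.6, 75, 35.3, 38.9 and 36.2 CPM in aged controls (-0.87 ± 0.28, adjusted p = 0.0281). None of these 3 overlapped, and E23 was the highest aged control in each. Oas2 overlapped, with 9.94, 18.3, 7.57, 10.3 and 8.83 CPM under rapamycin, against 17.9, 22.3, 12.5, 22.9 and 27.7 CPM in aged controls (-0.91 ± 0.25, adjusted p = 0.0108). Of the 27 called genes 16 had no overlap. The count of 27 became 16 without E23 and 13 without E6.

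**Figure D3:**
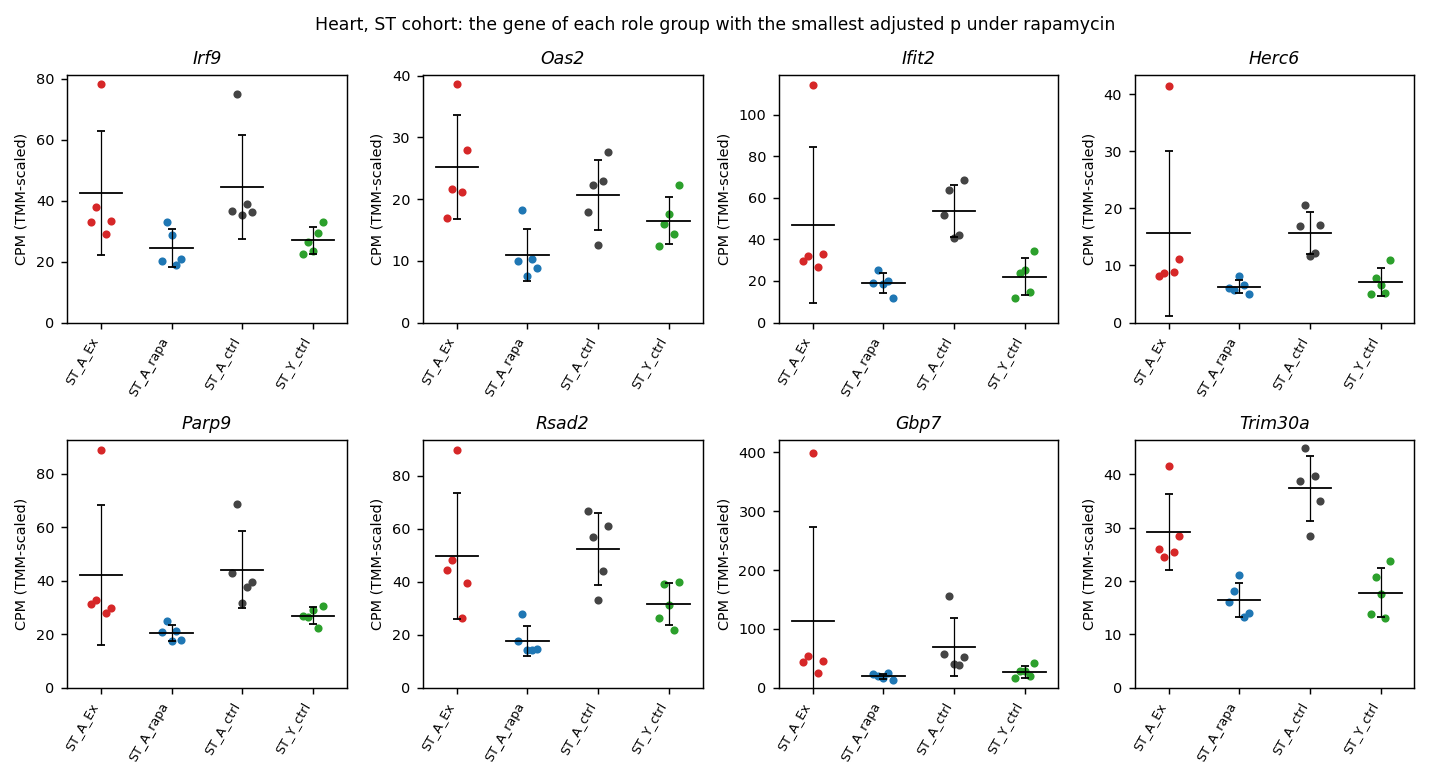
TMM-scaled CPM in ST heart of the gene of each role group with the smallest adjusted p under rapamycin, with 1 point per animal and the mean and SD of 5 animals per group, on axes that start at 0. Groups run from exenatide (ST_A_Ex) and rapamycin (ST_A_rapa) to aged controls (ST_A_ctrl) and young controls (ST_Y_ctrl); rapamycin lies below aged controls without overlap in all but Oas2, and 1 exenatide animal, E31, lies far above the other 4, as in Gbp7 with 399 CPM against 25.3 to 54.4 CPM.

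Gbp3, Rsad2 and Samd9l were lower under rapamycin in 4 tissues each. In frontal cortex Samd9l measured 7.23, 7.58, 7.95, 7.66 and 4.73 CPM under rapamycin, against 13.3, 10.7, 11.8, 11.5 and 12.8 CPM in aged controls (-0.77 ± 0.15, adjusted p = 0.000925), without overlap. In hippocampus Rsad2 measured 1.45, 1.95, 2.16, 1.22 and 1.4 CPM under rapamycin, against 5.67, 2.59, 2.15, 1.91 and 5.43 CPM in aged controls (-1.12 ± 0.29, adjusted p = 0.00392), with overlap at the low controls E29 and E30. Hippocampal calls under rapamycin covered 4 of 7 genes of RNA sensing and decay, 4 effectors, 3 GTPases and 2 each of the transcription factors, IFIT genes, ADP-ribosylation genes and others. In white blood cells Ifi27l2a measured 18.2, 13.5, 9.82 and 5.7 CPM under rapamycin (E22, E28, E36 and E6), against 78.6, 85, 24, 50.6 and 20.1 CPM in aged controls (-2.13 ± 0.46, adjusted p = 0.00596), without overlap. In muscle Oas2 measured 0.752, 1.09, 2, 0.687 and 0.217 CPM under rapamycin, against 5.24, 3.63, 1.48, 3.19 and 3.5 CPM in aged controls (-1.83 ± 0.45, adjusted p = 0.0115). The muscle values overlapped through E29 alone. Isg15, the ubiquitin-like modifier itself, was called once in all the comparisons, lower in muscle under rapamycin, with 0.265 ± 0.164 CPM under rapamycin and 0.89 ± 0.866 CPM in aged controls (SD, n = 5 each; -1.74 ± 0.57, adjusted p = 0.0499), with overlapping groups. The hippocampal count of 19 became 11 without E13, and the frontal cortex count of 8 became 5 without E13, E36 or E6. White blood cells gave 3 without E13, 1 without E23 or E6, 2 without E28 or E36 and 11 without E29. The muscle count of 11 became 0 with only the conditions compared in the fit and 4 with no filter on low counts, and the heart count of 27 and white blood cell count of 6 became 16 and 2 with no filter. The muscle count also became 3 without E6, 4 without E22, E23 or E36, 5 without E10, 6 without A44, A45, E32, E7 or E9, and 7 without A42, A46, A47, E13, E15, E16, E21 or E8.

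Immune markers and the wider pathway were lower under rapamycin as well. In heart 4 of 6 macrophage markers and the 3 tested neutrophil markers were called lower, with a macrophage sum of 182 to 401 CPM (median 247) under rapamycin, against 261 to 676 CPM (455) in aged controls, and a neutrophil sum of 6.75 to 12.1 CPM under rapamycin, against 15.2 to 36.6 CPM in aged controls. In hippocampus 4 of 6 macrophage and microglia markers were called lower (sum 231 to 285 CPM under rapamycin, against 250 to 402 CPM in aged controls). Their part in the result was not tested. Of the other interferon-induced genes, 25 of 46 tested were called lower in heart and 14 of 42 in hippocampus, and of the 15 sensors and regulators tested 8 and 6. On the log2 scale Ifnar1 was at -0.43 ± 0.10 in heart (adjusted p = 0.00537) and at -0.23 ± 0.05 in hippocampus (adjusted p = 0.00144). Cxcl10, a chemokine that draws T cells, was at -2.80 ± 0.76 in heart (adjusted p = 0.0113), and Zbp1 at -2.00 ± 0.65 in heart (adjusted p = 0.0279) and -1.94 ± 0.48 in hippocampus (adjusted p = 0.00312).

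Exenatide in aged ST mice gave a smaller and mixed picture. The test called 10 genes lower in hippocampus (14.4% of all genes tested were called lower there) and 8 higher in muscle (9.33%). Over the 7 tissues 8 tests of 273 were called higher (2.93%, against 4.08% over all genes) and 10 lower (3.66%, against 3.92%). DESeq2 called 4 and 12. In hippocampus 25.6% of the 39 genes were thus called lower, against 14.4% of all genes, and the shares over all tissues were near theirs.

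In hippocampus the genes called lower under exenatide were Zc3hav1, Dtx3l, Slfn8, Ifit1, Ifi44, Irgm1, Irf9, Parp14, Trim30a and Ifih1. Zc3hav1 measured 10.6, 12.3, 11.2, 12.4 and 13.9 CPM under exenatide (animals E19, E25, E31, E5 and E7), against 17.2, 16.5, 16.4, 17.4 and 15.7 CPM in aged controls (-0.46 ± 0.11, adjusted p = 0.00147). It was the only called gene here whose groups did not overlap. Dtx3l, the ubiquitin ligase that pairs with PARP9, measured 6.84, 8.68, 8.76, 8.49 and 9.03 CPM under exenatide, against 11.1, 11, 8.66, 11.7 and 10.2 CPM in aged controls (-0.33 ± 0.10, adjusted p = 0.0105). Slfn8 measured 1.25, 0.964, 1.3, 1.57 and 1.89 CPM under exenatide, against 3.49, 1.73, 2.56, 2.31 and 2.13 CPM in aged controls (-0.81 ± 0.24, adjusted p = 0.0112). Ifit1, which binds viral RNA caps, measured 2, 1.73, 3.5, 1.99 and 5.79 CPM under exenatide, against 11.3, 3.54, 2.86, 5.44 and 7.52 CPM in aged controls (-1.04 ± 0.34, adjusted p = 0.0231). E7 was the highest exenatide library in these 4 genes, and E29 the lowest control for Dtx3l and Ifit1. Ifi44 measured 0.435, 0.406, 0.691, 0.314 and 2.08 CPM under exenatide, against 1.62, 1.77, 0.866, 1.65 and 2.76 CPM in aged controls (-1.19 ± 0.40, adjusted p = 0.0261). Irgm1 measured 8.61, 9.26, 12.3, 9 and 10.9 CPM under exenatide, against 20.5, 14.8, 10.3, 11.4 and 11.3 CPM in aged controls (-0.45 ± 0.16, adjusted p = 0.0392). Irf9 measured 8.38, 9.24, 9.69, 9.12 and 10.5 CPM under exenatide, against 18.5, 11.1, 7.79, 14.9 and 12.4 CPM in aged controls (-0.46 ± 0.17, adjusted p = 0.0452). The count of 10 became 5 with no filter or with only the conditions compared in the fit, 3 without E13, E19 or E5, 4 without E25 and 17 without E7. The macrophage and microglia sum was 273 to 321 CPM (median 314) under exenatide, against 250 to 402 CPM (306) in aged controls, with 1 of the 6 markers called higher and 1 lower.

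In muscle the 8 genes called higher under exenatide were Igtp, Irgm1, Iigp1, Gbp7, Parp14, Ifit3, Ifit3b and Usp18, and each rested on animal E31. Irgm1 measured 16.8, 18.1, 1070, 14.9 and 15.6 CPM under exenatide, against 19.4, 49.1, 14, 12.1 and 13 CPM in aged controls (3.40 ± 0.87, adjusted p = 0.0082). Parp14 measured 7.23, 7.14, 250, 8.18 and 10 CPM under exenatide, against 13.7, 19.4, 5.15, 7.79 and 9.86 CPM in aged controls (2.33 ± 0.69, adjusted p = 0.0198). Ifit3 measured 5.33, 4.94, 51.2, 4.5 and 6.92 CPM under exenatide, against 4.09, 5.89, 4.69, 3.5 and 7.42 CPM in aged controls (1.5 ± 0.46, adjusted p = 0.0231). The other 4 exenatide animals lay within the range of the controls in all 3 genes. Usp18, the protease that removes ISG15, measured 2.58, 1.82, 27.6, 2.4 and 2.95 CPM under exenatide, against 1.9, 3.41, 2.8, 1.65 and 2.79 CPM in aged controls (1.56 ± 0.49, adjusted p = 0.0266). With only the conditions compared in the fit the count was 0, with no filter 3 and by DESeq2 2. Without E31 none of the 39 genes was called higher and 3 were called lower, and without E30 or E32 the count of 8 became 3 or 5. All 3 endothelial markers were called lower under exenatide in muscle (sum 37.8 to 85.1 CPM under exenatide, against 118 to 148 CPM in aged controls), and the T and NK cell sum was 0.638 to 2.58 CPM under exenatide, against 0 to 2.93 CPM in aged controls.

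Set directly against each other, exenatide and rapamycin differed in many of these genes. With exenatide over rapamycin, 24 genes were called higher in adipose tissue (2.18% of all genes tested were called higher there), 15 in heart (1.84%) and 15 in muscle (2.55%). Over the 7 tissues 54 of 273 tests were called higher (19.8%, against 1.02% over all genes) and 0 lower by edgeR and by DESeq2. Over all genes, edgeR called 1.31% of such tests lower. At an unadjusted p under 0.05, for which no share of all genes is given, 0 were lower. DESeq2 called 76 higher. In adipose tissue the calls covered all 6 GTPases, 4 genes of RNA sensing and decay, 4 effectors, 3 ADP-ribosylation genes, 3 others, 2 genes of the ISG15 system, 1 IFIT gene and 1 transcription factor.

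The adipose values were spread widely among the exenatide animals. Slfn5 measured 649, 401, 340, 285 and 254 CPM under exenatide, against 143, 235, 183, 161 and 144 CPM under rapamycin (1.16 ± 0.26, adjusted p = 0.0295). Ifit2 measured 70.5, 147, 149, 37 and 21 CPM under exenatide, against 14, 16.3, 11.1, 19.6 and 13.2 CPM under rapamycin (2.52 ± 0.55, adjusted p = 0.0289). Iigp1, a GTPase that disrupts vacuoles of intracellular parasites, measured 497, 1690, 1330, 46.2 and 48.3 CPM under exenatide, against 29.4, 30.7, 20.3, 25.3 and 7.21 CPM under rapamycin (5.0 ± 1.26, adjusted p = 0.0357). Every exenatide library lay above every rapamycin library for these 3 genes, with E25 and E31 among the highest for Ifit2 and Iigp1. Herc6 measured 41.8, 117, 91.2, 22.5 and 17.4 CPM under exenatide, against 15.1, 17.3, 9.85, 12.9 and 12 CPM under rapamycin (2.11 ± 0.54, adjusted p = 0.0362). Parp9 measured 138, 223, 208, 93.8 and 73.1 CPM under exenatide, against 55.3, 62.9, 55.9, 63.1 and 26.2 CPM under rapamycin (1.48 ± 0.36, adjusted p = 0.0338). Ifih1 measured 115, 124, 86.6, 56.7 and 37.5 CPM under exenatide, against 44.2, 42.6, 19.8, 38.5 and 26.8 CPM under rapamycin (1.29 ± 0.32, adjusted p = 0.0356). Herc6 and Parp9 did not overlap, Herc6 only narrowly, and Ifih1 did through E7. Irf7, the factor that amplifies type I interferon production, measured 69.6, 293, 289, 82.7 and 36.6 CPM under exenatide, against 32.5, 39.1, 33.8, 27.3 and 13.9 CPM under rapamycin (2.40 ± 0.68, adjusted p = 0.0465), overlapping at E7. The adipose count of 24 became 0 with no filter on low counts. It also became 0 without E10, E25, E28, E31, E36 or E6, 1 without E19 and 14 without E22. The T and NK cell sum in adipose tissue was 37 to 988 CPM (median 139) under exenatide, against 10.1 to 33 CPM (13.5) under rapamycin, and 3 of 4 neutrophil markers, 1 of 6 T and NK cell markers and 1 of 4 markers of B and plasma cells were called higher. Their part was not tested.

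Gbp7, Herc6, Irgm1 and Parp14 were called higher under exenatide than under rapamycin in adipose tissue, heart and muscle. In heart Gbp7 measured 44.5, 54.4, 399, 25.3 and 45.6 CPM under exenatide, against 23.2, 19.4, 17, 24.7 and 12.5 CPM under rapamycin (2.56 ± 0.59, adjusted p = 0.0173), without overlap. The heart count of 15 became 0 with only the conditions compared in the fit, 7 with no filter on low counts and 25 by DESeq2, and the muscle count of 15 became 4 and 8 in the first 2 of these. The heart count also became 2 without E31, 3 without E28, 4 without E6 and 23 without E5. The muscle count of 15 became 1 without E31, 7 without E10, 8 without E22 or E36 and 9 without E6.

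Knockdown of the receptor in aged mice gave 8 calls of 273 lower than aged controls (2.93%, against 1.38% over all genes). It gave 0 higher by edgeR or DESeq2, where edgeR called 1.89% of all tests over all genes higher. At an unadjusted p under 0.05, for which no share of all genes is given, 2 were higher. The 8 calls were 4 in frontal cortex (3.04% of all genes there were called lower), 3 in white blood cells (3.31%) and 1 in muscle (1.69%). DESeq2 called 23 lower. In frontal cortex Samd9l measured 9.71, 6.94, 7.08, 7.96 and 6.02 CPM under knockdown (animals E20, E21, E35, E8 and E9), against 13.3, 10.7, 11.8, 11.5 and 12.8 CPM in aged controls (-0.67 ± 0.15, adjusted p = 0.0345). Dtx3l measured 10, 8.66, 8.35, 7.3 and 8.92 CPM under knockdown, against 12.6, 11.8, 10.2, 9.96 and 11.5 CPM in aged controls (-0.37 ± 0.10, adjusted p = 0.0363). Gbp3 measured 4.81, 3.47, 3.81, 4.31 and 3.81 CPM under knockdown, against 6.96, 14, 5.64, 5.19 and 9.23 CPM in aged controls (-1.02 ± 0.27, adjusted p = 0.0363). Samd9l and Gbp3 did not overlap, and Dtx3l overlapped at the knockdown animal E20. Rsad2 was also called there (-1.09 ± 0.29, adjusted p = 0.0363). The white blood cell genes were Rtp4, Irf9 and Ifi27l2a, and Rtp4 measured 12.6, 14.3, 9.49, 22 and 16.3 CPM under knockdown, against 39.1, 111, 17.9, 52 and 27.9 CPM in aged controls (-1.73 ± 0.49, adjusted p = 0.0332). The muscle gene was Oas2, with 1.31, 0.947, 0.978, 1.81 and 0.651 CPM under knockdown, against 5.24, 3.63, 1.48, 3.19 and 3.5 CPM in aged controls (-1.58 ± 0.44, adjusted p = 0.0389). Both overlapped at the low control E29.

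The heart showed lower values under knockdown that did not pass the test, with 0 called. All 39 fold changes were negative (median -0.82, against -0.002 over all genes, of which 49.8% were positive). There 12 genes did not overlap and 32 had an unadjusted p under 0.05, and neither count has a share of all genes beside it. The 39-gene mean in heart was 4.13 ± 0.31 under knockdown and 4.99 ± 0.47 in aged controls (SD, n = 5 each), without overlap. The counts of called genes rested on single animals. The frontal cortex count of 4 was 1 with no filter on low counts, 11 by DESeq2 and 14 with only the conditions compared in the fit, and the white blood cell count of 3 was 0, 9 and 0. The frontal cortex count became 0 without E13, E20, E23, E30, E35 or E8 and 8 without E15. The white blood cell count of 3 became 0 without E13, E20, E23, E30 or E35, 1 without E21, 8 without E29 and 5 without E32, and the muscle count of 1 became 4 without E31.

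Exenatide within the knockdown, against knockdown alone, gave 5 calls lower in hippocampus (12.8% of the 39 genes, against 15.1% of all genes there). Over all tissues these were 1.83% of 273 tests, against 2.39% over all genes, and edgeR called 0 higher. DESeq2 called 11 higher, and edgeR called 2.55% of all tests over all genes higher. At an unadjusted p under 0.05, for which no share of all genes is given, 64 tests were higher. Zc3hav1 measured 10.6, 13.3, 12.1, 12.2 and 12.8 CPM under exenatide with knockdown (animals E12, E15, E16, E33 and E34), against 19.7, 13.6, 15, 23.9 and 17.1 CPM under knockdown alone (-0.55 ± 0.11, adjusted p = 0.000239). Ifit2 measured 10.1, 10.5, 9.53, 9.64 and 9.33 CPM under exenatide with knockdown, against 12.8, 12.2, 11, 12.5 and 10.4 CPM under knockdown alone (-0.26 ± 0.09, adjusted p = 0.0231). Slfn8 measured 1.45, 1.17, 1.1, 1.76 and 1.16 CPM under exenatide with knockdown, against 3.71, 2.24, 1.61, 2.27 and 1.79 CPM under knockdown alone (-0.80 ± 0.25, adjusted p = 0.0133). Zc3hav1 did not overlap, and Ifit2 and Slfn8 each overlapped narrowly. Dtx3l (-0.38 ± 0.10, adjusted p = 0.00339) and the kinase Eif2ak2, which halts translation on binding double-stranded RNA (-0.48 ± 0.13, adjusted p = 0.00464), were called as well. The count of 5 became 8 by DESeq2, 3 without E20, 8 without E35 or E9 and 9 without the exenatide animal E7. Zc3hav1, Dtx3l and Slfn8 thus had a lower level in hippocampus under exenatide both with knockdown and without it, in comparisons that use different animals but 1 estimate of spread. Within the knockdown, the share of the 39 genes called lower there (12.8%) was below that of all genes (15.1%).

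Outside the hippocampus the fold changes of exenatide within the knockdown were mostly positive and not called. In adipose tissue all 39 were positive (median 1.15, against 0.09 over all genes), with 17 at an unadjusted p under 0.05 and 0 called by edgeR. DESeq2 called 7 there, and edgeR called 4 without E12, 9 without E34 and 6 without E8. In heart all 39 were positive (median 0.71, against 0.01 over all genes), with 22 at an unadjusted p under 0.05, 0 called by edgeR and 3 by DESeq2. White blood cells had 36 positive (median 0.52), muscle 35 (0.39) and frontal cortex 33 (0.23), whereas colon had 12 (-0.24).

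The difference between these exenatide effects, tested as an interaction, was called for 0 of 273 tests in either direction by edgeR and by DESeq2. Over all genes, edgeR called 1.17% of such tests with a more positive exenatide effect under knockdown and 1.24% with a more negative one. At an unadjusted p under 0.05, for which no share of all genes is given, 29 tests were more positive and 4 more negative. The largest median of the 39 interaction terms was 0.79 in heart, where 38 were positive. Without E31, 10 genes in muscle were called with a more positive effect under knockdown.

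**Figure D4:**
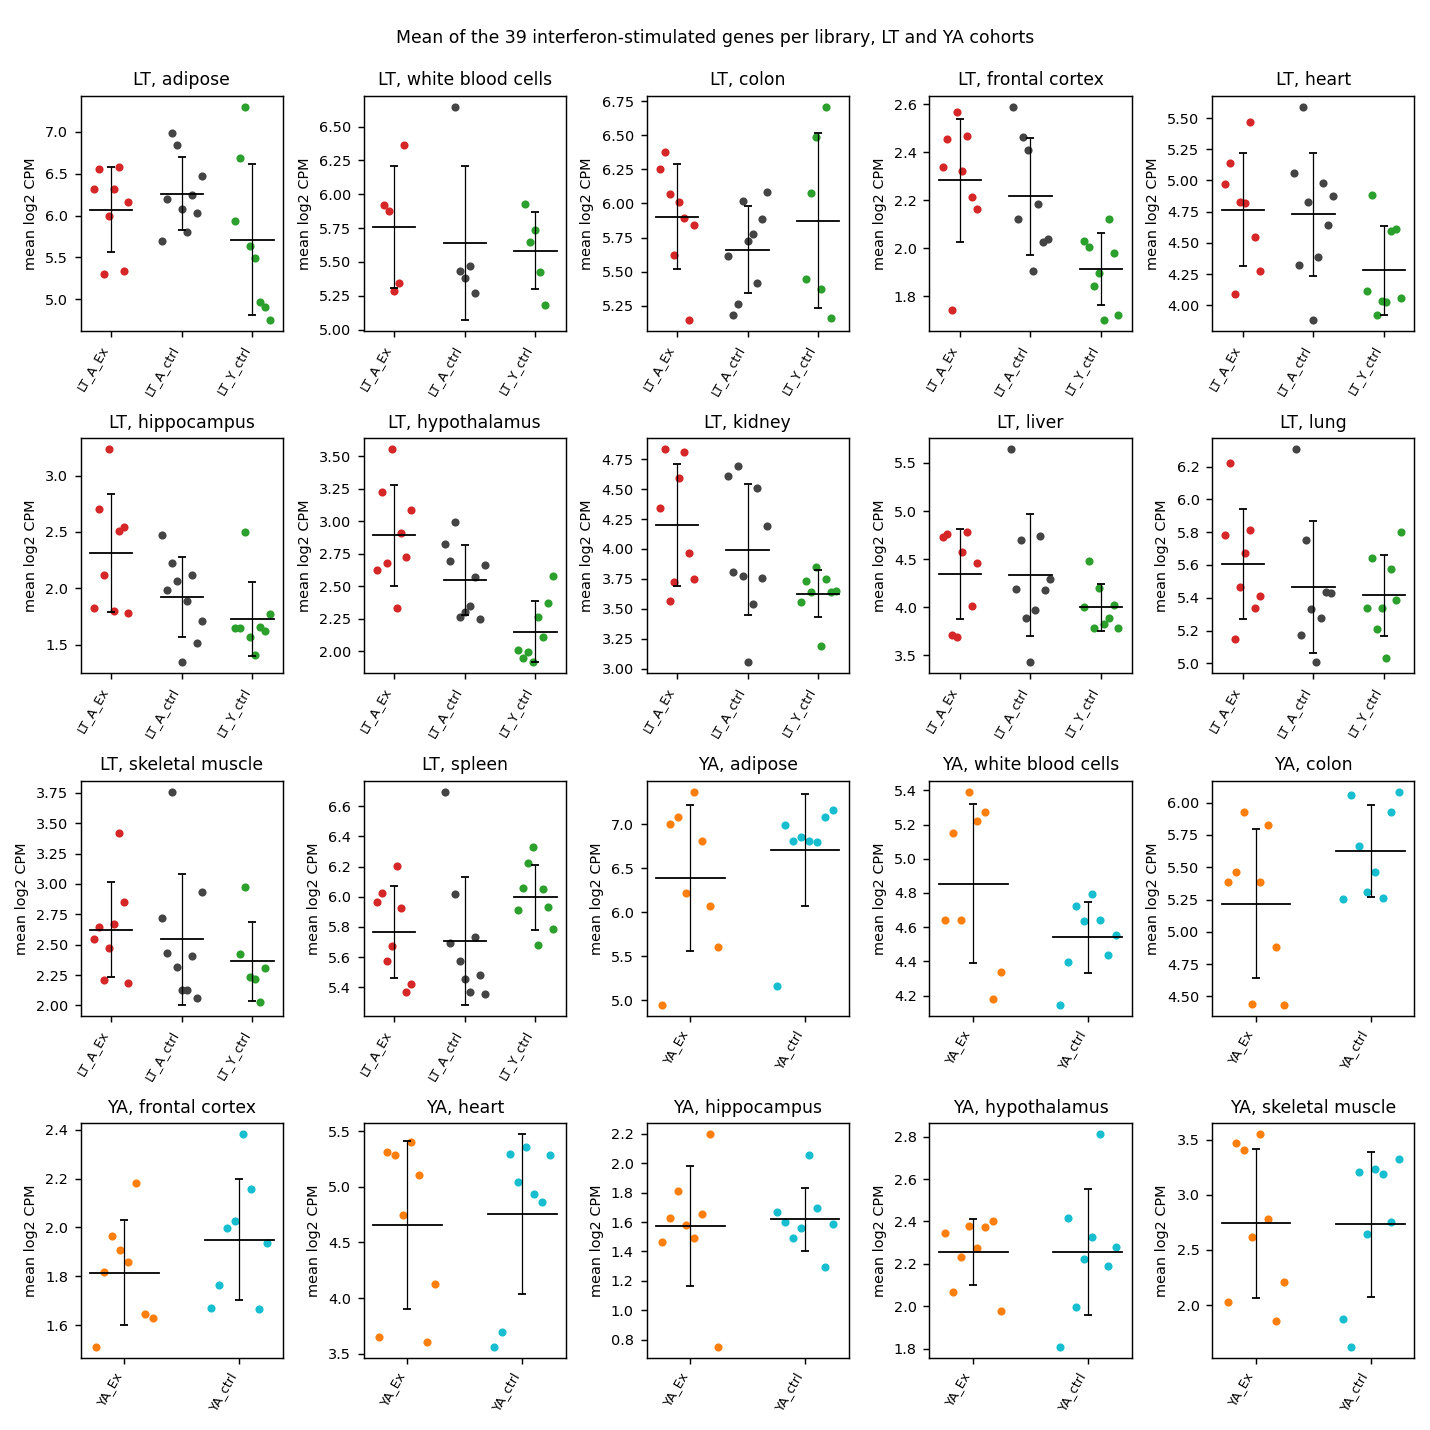
Mean log2 CPM of the 39 genes in every LT and YA library, by tissue, with 1 point per animal, the group mean as a horizontal line and the SD as a bar. In LT, groups run from exenatide (LT_A_Ex) to aged controls (LT_A_ctrl) and young controls (LT_Y_ctrl), and in YA from exenatide (YA_Ex) to controls (YA_ctrl). The groups overlap in every panel.

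In the LT cohort the age contrast gave fewer calls, in more tissues. Higher levels in aged than in young controls were called for 8 genes in adipose tissue (26.1% of all genes there were called higher), 5 in heart (8.06%), 5 in hypothalamus (3.12%), 4 in white blood cells (15.7%), 4 in frontal cortex (2.94%), 3 in liver (2.36%), 1 in kidney (4.72%) and 1 in hippocampus (0.324%). Lower levels were called for 3 genes in colon (8.41%), 3 in spleen (4.27%) and 2 in adipose tissue (24.7%). Over the 12 tissues 31 of 468 tests were called higher (6.62%, against 7.01% over all genes) and 8 lower (1.71%, against 6.56%), so the share called higher was near the background. DESeq2 called 55 and 11. Within sequencing batch 3 alone 12 were called higher and 4 lower, and within batch 1 or 2 alone 14 and 3. For the genes called higher, adipose tissue gave 0 in batch 3 and 5 in batch 1 or 2, frontal cortex 0 and 1, heart 0 and 0, and hypothalamus 1 and 0, whereas kidney had 4 in batch 3 alone. For those called lower, colon gave 1 and 0, spleen had 0 in batch 1 or 2, and muscle, with no call in the full fit, had 3 in batch 1 or 2.

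Zc3hav1 was the gene called in the most LT tissues, higher in aged adipose tissue, frontal cortex, heart, hippocampus, hypothalamus and kidney. In kidney it ranged from 27.9 to 37.6 CPM (median 30.7, n = 9) in aged controls, against 18.7 to 24.7 CPM (22.6, n = 8) in young controls (0.54 ± 0.08, adjusted p = 5.15e-05). In frontal cortex it ranged from 7.91 to 12.5 CPM (median 8.91, n = 8) in aged controls, against 4.34 to 7.32 CPM (6.2, n = 8) in young controls (0.63 ± 0.12, adjusted p = 0.00255). Neither tissue had an overlap. The hypothalamic difference was 0.46 ± 0.09 (adjusted p = 0.00336), that in hippocampus 0.72 ± 0.15 (adjusted p = 0.0253) and that in heart 0.28 ± 0.08 (adjusted p = 0.0114), all with overlapping groups. Igtp was called higher in 4 tissues. In white blood cells it measured 176, 223, 314, 279 and 266 CPM in aged controls (animals B15, B24, B27, B34 and B39), against 124, 143, 90.3, 96.1 and 84.1 CPM in young controls (1.23 ± 0.28, adjusted p = 0.00758), without overlap. In liver it ranged from 36.1 to 204 CPM (median 78.1, n = 9) in aged controls, against 25.4 to 51 CPM (38.2, n = 8) in young controls (1.57 ± 0.34, adjusted p = 0.00964). Ifit2 in white blood cells measured 146, 99.9, 168, 155 and 135 CPM in aged controls, against 79, 85.1, 56.5, 63.9 and 51.6 CPM in young controls (1.07 ± 0.27, adjusted p = 0.0111), without overlap. Irf7 was higher in aged heart (0.98 ± 0.31, adjusted p = 0.0312) and hypothalamus (1.03 ± 0.28, adjusted p = 0.03).

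In LT adipose tissue 20.5% of the members were called higher, against 26.1% of all genes, and 5.13% lower, against 24.7%. Both shares were thus below those of all genes. Samd9l ranged there from 123 to 277 CPM (median 175, n = 9) in aged controls, against 38.6 to 117 CPM (66.2, n = 8) in young controls (1.26 ± 0.23, adjusted p = 0.000169), without overlap. Dtx3l ranged from 131 to 276 CPM (167) in aged controls, against 46.7 to 208 CPM (96.8) in young controls (0.74 ± 0.25, adjusted p = 0.0166). Gbp7 ranged from 143 to 566 CPM (236) in aged controls, against 52.4 to 389 CPM (104) in young controls (0.90 ± 0.37, adjusted p = 0.0479). Both overlapped, with the young animals reaching well into the aged range. In the other direction, Ifi27l2a ranged from 77.4 to 466 CPM (231) in aged controls, against 326 to 607 CPM (446) in young controls (-1.01 ± 0.25, adjusted p = 0.00194), and Ifit3b was at -0.69 ± 0.26 (adjusted p = 0.0297). Immune markers were called higher in the same tissue: 3 of 3 pan-leukocyte, 5 of 6 macrophage, 6 of 6 T and NK cell and 4 of 4 markers of B and plasma cells. The T and NK cell sum ran from 88.3 to 653 CPM (median 331) in aged controls, against 13.5 to 166 CPM (24.2) in young controls, and the sum over B and plasma cells from 1230 to 3020 CPM in aged controls, against 18.8 to 319 CPM in young controls. Their part in the result was not tested.

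Single animals moved most LT counts. The adipose count of 8 higher genes became 5 with no filter on low counts, 18 without A53, 4 without A54, A57 or B24, and 5 without A51, A55, A56, A58, B19 or B41. The heart count of 5 became 3 without A51, A53, A54, A55 or B19, 9 without B30, 10 without A52 or B16 and 11 without B27. The hypothalamus count of 5 became 1 without A51, A52, A53, A55, A56, B15 or B19, 2 without B16, 3 without A57, 8 without B13, 14 without A58, 12 by DESeq2 and 11 with only the conditions compared in the fit. Frontal cortex, with 4, gave 1 with no batch term and 7 by DESeq2 or with only the conditions compared in the fit, 1 without A58, B15 or B19 and 2 without A53, A54 or B24. Liver, with 3, gave 1 without A55, A56, A57, B15, B19, B37 or B41, 5 without B27 or B36 and 6 without A52, and kidney, with 1, gave 4 without B27. White blood cells gained 10 genes called lower without B15, and muscle 3 without A54. The 3 colon genes called lower, Ifi27l2a, Trim30a and Herc6, became 1 without the young colons A52 and A53, Ifi27l2a (-2.10, adjusted p = 0.0123), in a fit where 1.87% of all genes were called lower, against 8.41% with them. With only the conditions compared in the fit there were 0. Leaving out 1 animal, they became 1 without A53, B16 or B19, 0 without A56, 9 without A57 and 5 without B41. The 3 spleen genes called lower were Samd9l (-0.52 ± 0.14, adjusted p = 0.0195), Trim30a and Dtx3l. Their number became 18 without B15, 6 without B19 or B28, 5 without A52 and 1 without A51, A53, A54, A57, A58, B24, B27, B34, B37, B39, B40 or B41.

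Exenatide in aged LT mice gave 10 calls higher of 468 (2.14%, against 2.63% over all genes) and 4 lower (0.855%, against 2.29%). DESeq2 called 20 and 5. In hypothalamus 9 genes were called higher (3.27% of all genes there), with 36 of 39 fold changes positive (median 0.39). In LT hippocampus edgeR called 0 of 39, and 0% of the 17601 genes tested, with 38 of 39 fold changes positive (median 0.48, against 0.014 over all genes) and 18 members at an unadjusted p under 0.05. The same tissue in the ST cohort had 3 of 39 positive (median -0.44) and 10 called lower. The difference between the cohorts was not tested. Among the 9 genes called in hypothalamus, Iigp1 ranged there from 2.68 to 10.3 CPM (median 6.48, n = 8) under exenatide, against 1.29 to 4.6 CPM (3.27, n = 9) in aged controls (1.04 ± 0.24, adjusted p = 0.0284). Samd9l ranged from 6.16 to 13.9 CPM (9.79) under exenatide, against 4.5 to 10.5 CPM (5.91) in aged controls (0.75 ± 0.20, adjusted p = 0.0346). Ifit1 ranged from 5.65 to 35.3 CPM (10.8) under exenatide, against 4.06 to 9.79 CPM (7.81) in aged controls (1.07 ± 0.29, adjusted p = 0.0369). All 3 overlapped between groups, as did the other 6 (Ifit3b, Gbp7, Irgm1, Slfn8, Ddx60 and Trim30a). The hypothalamus count of 9 became 0 without B14, B16, B24, B26 or B27, 1 without B34, 2 without B15, 3 without B25 or B40, 4 without B39 and 15 without B13. It was 0 in a fit with no batch term, 0 within batch 3, 2 within batch 1 or 2, 5 with no filter on low counts and 16 by DESeq2. None of the 6 macrophage and microglia markers was called in hypothalamus, with sums of 165 to 195 CPM under exenatide, against 163 to 293 CPM in aged controls.

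Samd9l was called lower under exenatide in LT kidney and adipose tissue. In kidney it ranged from 111 to 196 CPM (median 161, n = 8) under exenatide, against 199 to 303 CPM (229, n = 9) in aged controls (-0.57 ± 0.10, adjusted p = 0.00108), without overlap, where 5.97% of all genes were called lower. In adipose tissue, where 8.68% of all genes were called lower, Samd9l (-0.69 ± 0.22, adjusted p = 0.0321) and Ddx60 (-0.65 ± 0.22, adjusted p = 0.0367) were called. In LT colon Gbp7 was called higher (0.74 ± 0.21, adjusted p = 0.0264, with 5.11% of all genes called higher) and Bst2 lower (-0.95 ± 0.27, adjusted p = 0.0261, with 6.98% of all genes called lower). The colon count of 1 higher gene became 4 without B41, and 3 genes were called higher in kidney without B15 or B40. Without the young colons A52 and A53, both colon genes were again called under exenatide, Gbp7 at 0.74 (adjusted p = 0.021, with 8% of all genes called higher) and Bst2 at -0.94 (adjusted p = 0.0144, with 10.5% called lower).

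Exenatide in the YA cohort gave 2 calls of 310 lower (0.645%, against 0.356% over all genes) and 0 higher by edgeR (0.275% over all genes). DESeq2 called 5 higher and 5 lower. At an unadjusted p under 0.05, for which no share of all genes is given, 21 were higher. Both edgeR calls were in colon (2.6% of all genes there were called lower). Oas1a ranged from 59.9 to 109 CPM (median 74.2, n = 8) under exenatide, against 79.8 to 124 CPM (109, n = 8) in controls (-0.50 ± 0.12, adjusted p = 0.0288). Usp18 ranged from 3.02 to 12.9 CPM (7.54) under exenatide, against 9.22 to 37.8 CPM (14.2) in controls (-1.27 ± 0.34, adjusted p = 0.045). Both overlapped. The mucin Muc2, made by goblet cells, ran from 4230 to 12300 CPM in the same colons under exenatide, against 13200 to 25700 CPM in controls (-1.02 ± 0.22, adjusted p = 0.0171), without overlap. Jchain, which joins secreted antibodies of plasma cells, averaged 405 ± 301 CPM under exenatide and 1359 ± 459 CPM in controls (SD, n = 8 each; -1.75 ± 0.40, adjusted p = 0.0223). Car1 averaged 579 ± 232 CPM under exenatide and 206 ± 104 CPM in controls (1.49 ± 0.29, adjusted p = 0.0101). The part of these cells in the colon result was not tested. White blood cells gave 0 calls by edgeR and gained 6 genes called higher without the control A41. The 5 genes that DESeq2 called higher were in this tissue. There 29 of 39 fold changes were positive (median 0.42, against 0.061 over all genes). In either direction, 19 members had an unadjusted p under 0.05.

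Some animals carried very high levels of the interferon gamma-responsive GTPases in several tissues. The transcript of interferon gamma itself (Ifng) was measurable in adipose tissue and in white blood cells, and its adipose values are set out here. Ifng and Igtp were set side by side after values of both had been seen. In the ST cohort Ifng in adipose tissue was 60.7 CPM in E31 (exenatide), 42.1 in E16, 10.4 in E33 and 5.31 in E15 (all exenatide with knockdown), 8.63 in E23 (aged control), 7.71 in E25 and 1.4 in E19 (exenatide), and 2.74 in E8 (knockdown), with at most 0.962 CPM in each of the others. Igtp in heart was 2170 CPM in E31, 876 in E33, 839 in E23, 765 in E16, 415 in E15 and 82.8 in E25, with at most 67.7 CPM in each of the others. The 5 highest Igtp values in heart thus belonged to 5 of the 6 animals with the most Ifng in adipose tissue. All 5 rapamycin animals had at most 0.226 CPM of Ifng in adipose tissue and 23.4 to 36.9 CPM of Igtp in heart. In muscle Igtp was 2760 CPM in E31, 115 in E23 and at most 42 CPM in each of the others.

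The YA and LT cohorts held a wide range of Igtp as well. In the YA cohort Igtp in heart was 15.3 to 47.7 CPM in 5 animals (A31, A84 and A88 on exenatide, A32 and A33 controls) and 270 to 1290 CPM in the other 11, with both conditions in each range. A33 had 14.9 CPM of Ifng in adipose tissue with 31.9 CPM of Igtp in heart. In LT heart Igtp ran from 25.1 to 871 CPM in aged mice of both conditions, against 22.5 to 145 CPM in young controls. The most Ifng in LT adipose tissue was 40.9 CPM in B24, with 307 CPM of Igtp in heart. The most Igtp in LT heart was 871 CPM in B19, with 14.9 CPM of Ifng in adipose tissue. The young control A53 had 20.4 CPM of Ifng in adipose tissue with 28.6 CPM of Igtp in heart. What sets these levels was not tested.

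**Figure D5:**
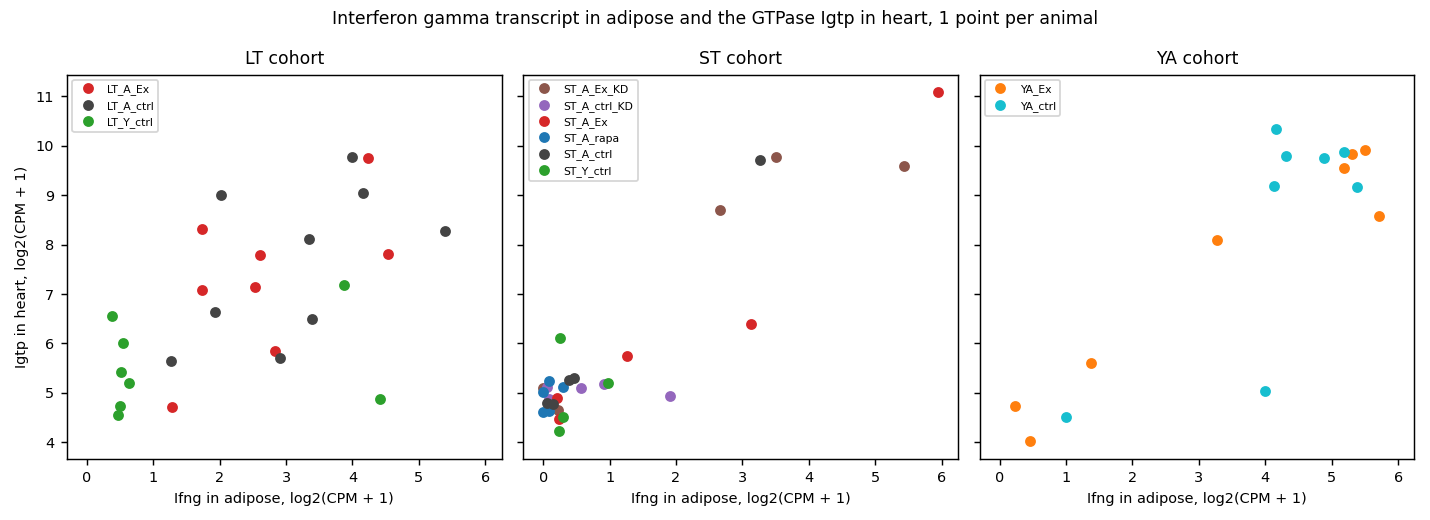
Ifng in adipose tissue (x) against Igtp in heart (y), both as log2 of CPM plus 1, with 1 point per animal and a panel per cohort, coloured by condition. In the ST panel the animals with the most Igtp are E31 (2170 CPM), E33, E23, E16 and E15, and all 5 rapamycin animals lie at the lower left; in the YA panel both conditions appear at low and at high levels.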

How the data were processed

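The labels and the design text give poly(A) RNA-seq of mouse tissues. Per the labels' protocols, tissue from RNAlater was extracted with TRIzol or the RNAqueous kit and libraries were made with a kit that does not mark strand, so overlapping genes on opposite strands cannot be told apart. The submitters' processing notes name FastQC 0.11.9 and the build GRCm39. No aligner, counter or annotation is named in the labels, notes or file headers. The authors deposited raw counts per gene for the LT cohort and estimated counts for ST and YA, of which 7.37% and 7.21% were not whole; these were rounded. Median depth was 25.8, 24.8 and 26.2 M (mega) counts per library in LT, ST and YA. Intervals are SE or SD between animals and cover neither cage nor litter.

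Libraries were grouped by the condition, animal and tissue in their titles, and all 620 were used. Each tissue of a cohort was fitted once over all its conditions with edgeR 4.0.16 in R 4.3.3 (TMM, filterByExpr by condition, robust quasi-likelihood F test), with sequencing batch as a term in LT tissues with batches 1 or 2 and 3. LT liver (batch 3) and white blood cells (batch 1), ST (batch 5) and YA (batch 4, colon 6) had 1 batch per tissue. P-values were adjusted by Benjamini-Hochberg over all genes tested in a tissue and contrast, and an adjusted p under 0.05 was called. The 39-gene mean used log2 CPM with a prior count of 2. In each contrast, the member with the smallest adjusted p of each role group in the tissue with the most calls is given by library, with the members called in the most tissues; other values of members and of Ifng, Sis and the cell markers are given where a result touches them. Members and gene lists were chosen with earlier results of these data known. Alternatives were DESeq2 1.42.0, its size factors, no filter, only the conditions compared, no batch term, single batches and leaving out each animal, and the fit was tested on simulated data. Shared sequence was counted over 75-base stretches of the GENCODE vM21 transcripts. Herc6, Gbp7 and Rtp4 share 11.3%, 11.3% and 10.5% of theirs with other genes, Igtp 7.8%, and the remaining members not named in the report under 7%. One gene of the wider pathway is not reported here.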

Additional observations from a re-analysis of the deposited data

Results flagged for a closer look

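The 39-gene mean of each library was examined for animals far from the rest of their group, in 94 groups of 4 to 9 animals, and 9 stood apart. Chance flags about 1 in 20 groups. On the log2 CPM scale, the aged LT control B15 stood above the others in white blood cells (6.65, with the next at 5.47) and in spleen (6.70, next 6.02). The young LT control A53 was the highest in hippocampus (2.50, next 1.77) and A55 the lowest in kidney (3.19, next 3.55). In ST, the exenatide animal E31 was the highest in heart (6.37, next 4.66) and in muscle (4.29, next 2.26), the aged control E23 was the highest in adipose tissue (7.14, next 5.35) and the young control A47 was the highest in hippocampus (2.02, next 1.68). The YA control A32 was the lowest in adipose tissue (5.16, next 6.79).

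E31 and E23 are also the animals with 2170 and 839 CPM of Igtp in heart and with 60.7 and 8.63 CPM of Ifng in adipose tissue. B15 stood apart in 2 tissues, and without it 32 tests of members were called lower with age in LT, where 8 were called with it.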

How the results depend on the processing

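Scaling by DESeq2 size factors left every total of called tests within 1.5 times its value. Without a filter on low counts, called tests numbered 6 for LT exenatide higher (10 with the filter), 1 for YA exenatide lower (2), 1 for ST age lower (2), 3 for ST exenatide higher (8) and 5 lower (10), 45 for rapamycin lower (71), 15 for exenatide over rapamycin (54) and 1 for knockdown lower (8). DESeq2 gave 55 for LT age higher (31), 20 for LT exenatide higher (10), 5 higher and 5 lower for YA exenatide (0 and 2), 4 for ST exenatide higher (8), 23 for knockdown lower (8), and 11 higher and 8 lower for exenatide within knockdown (0 and 5). With only the conditions compared in the fit there were 16 for LT exenatide higher, 1 for ST age lower, 0 higher and 5 lower for ST exenatide, 23 for exenatide over rapamycin, 14 for knockdown lower and 1 higher for exenatide within knockdown. Without the batch term LT exenatide had 1 higher. Batch 3 alone gave 12 higher and 4 lower for LT age and 0 higher and 1 lower for LT exenatide, and batch 1 or 2 alone gave 14 and 3, and 3 and 1, with fewer animals in each fit. The cause of the other changes was not tested. The 63 tests called higher with age in ST ranged from 47 to 81 over these alternatives.

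Leaving out each animal in turn gave 16 to 42 for LT age higher and 3 to 32 lower, 0 to 15 and 1 to 4 for LT exenatide, 0 to 6 and 0 to 2 for YA exenatide, 42 to 87 and 0 to 3 for ST age, 0 to 10 and 3 to 17 for ST exenatide, 38 to 91 for rapamycin lower, 3 to 68 for exenatide over rapamycin, 0 to 1 and 0 to 16 for knockdown, 0 to 9 and 3 to 9 for exenatide within knockdown, and 0 to 10 and 0 to 2 for the interaction. Of 276 gene results, 68 kept their call under every alternative run and 103 under every one that kept all animals. The 7 that changed sign did so in muscle, each in the fit without E31. There the log2 fold change of ST exenatide ranged over the animals left out from -0.45 to 3.07 for Gbp7, from -1.10 to 5.28 for Igtp, from -1.75 to 6.56 for Iigp1, from -0.38 to 3.96 for Irgm1, from -0.44 to 2.63 for Parp14 and from -0.027 to 1.82 for Usp18, and that of exenatide over rapamycin from -0.10 to 3.18 for Gbp7. Differences in the 39-gene mean moved by over 1 SD in 1 of 296 alternatives. The 1 was knockdown in frontal cortex with the median in place of the mean (-0.69 in place of -0.38). Of 930 values without 1 animal, 0 moved by over 1 SD. Leaving out 1 animal always shifts its group's mean by less than that group's SD. That count therefore cannot show whether a difference rests on a single animal. No paired analysis was possible because the animals compared are different mice, whose labels carry no number shared between groups.

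Depth limits the low members most, and 21 of the 39 had under 1 CPM per kb in young LT hippocampus and 14 in young LT muscle.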
